A study of Mus musculus with 12 samples.

Results

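Krt5, Krt14, Trp63, Icam1 and Egfr, 5 genes used to recognise horizontal basal cells of the olfactory epithelium, were followed through cells sorted from mouse olfactory mucosa. They were chosen by name, each by the probe set whose single annotated symbol was that gene, and with the highest mean where a gene had several. Each of the 5 had 1 such probe set, so they are 5 of the 19938 genes with values. All 12 arrays came from S100a5-tauGFP mice, in which a tau-linked green fluorescent protein reports S100a5, a calcium-binding protein gene of olfactory sensory neurons whose transcription depends on their activity. The 18 mice, of both sexes and between 7 and 12 weeks old, sat singly in clean air chambers for 40 hours, and from hour 26 on received a 10 second pulse every 20 minutes. The pulse was filtered air in vehicle mice and a citrus accord, a perfumer's blend named with 5%, in odor mice. Mice were pooled in groups of 3, and each of the 6 pools was sorted by fluorescence into a GFP-positive and a GFP-negative sample. The 4 groups were thus vehicle GFP-negative and vehicle GFP-positive (replicates 1, 2 and 4) and odor GFP-negative and odor GFP-positive (replicates 2, 3 and 4), with 3 arrays each. The sorting marker reports sensory neurons and not basal cells, the mixture of sexes in each pool was not known here, and all groups carried the reporter.

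Horizontal basal cells are flat, largely quiescent stem cells on the basal lamina of the olfactory epithelium, which divide and rebuild it mainly after injury. They make the keratin pair KRT5 and KRT14, which assemble into the intermediate filaments of basal epithelial cells. The transcription factor p63, encoded by Trp63, a member of the p53 family, holds them in the resting state. ICAM1 is an adhesion molecule on their surface that is bound by leukocyte integrins, and it is also made by endothelial cells and leukocytes, where NF-kB activates its gene. EGFR is the receptor for the epidermal growth factor family, whose ligands make basal cells divide.

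Promoter sequence is shown for Icam1 and Krt5, because NF-kB genes are described beside Icam1 and p63 is itself one of the 5. Both are the 250 bases before the RefSeq gene start, 5′ to 3′ on the gene's strand, build GRCm38.p6, Icam1 at chr9:21015690-21015939 (plus strand) and Krt5 at chr15:101712906-101713155 (minus strand).
Icam1: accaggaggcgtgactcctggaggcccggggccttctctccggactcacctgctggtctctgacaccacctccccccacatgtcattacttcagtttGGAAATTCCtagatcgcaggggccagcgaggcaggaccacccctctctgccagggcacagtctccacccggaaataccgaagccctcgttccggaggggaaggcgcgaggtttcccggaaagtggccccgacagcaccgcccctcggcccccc
Krt5: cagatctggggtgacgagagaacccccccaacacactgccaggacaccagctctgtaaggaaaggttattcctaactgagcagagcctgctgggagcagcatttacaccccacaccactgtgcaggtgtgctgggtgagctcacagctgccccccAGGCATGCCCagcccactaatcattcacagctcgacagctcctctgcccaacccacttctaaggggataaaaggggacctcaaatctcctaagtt
Capitals in Icam1 mark a match to GGANNNTCC, a pattern of NF-kB sites, 153 bases before the start. Capitals in Krt5 mark a match to the p53-family half-site, the pattern that p63 shares with p53, 95 bases before the start. Both strands were searched, and since either pattern reads alike on both, each match is 1 place. GGANNNTCC was in 7.27% of 32851 promoter windows of this length and the half-site in 7.13%. These shares were taken over all windows, whether or not at a gene start. The Egfr window held neither pattern, and Trp63 had no entry. The window for Krt14 held GGANNNTCC at 2 places and no half-site, but did not lie at its annotated gene start and is not shown. A match describes letters and not a bound site.

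The lowest r between replicate arrays was 0.984 and the highest r across fractions 0.960, with array medians between 7.04 and 7.20 on the log2 scale. Of 9 mature sensory neuron markers, 8 were higher in GFP-positive cells of vehicle mice and 9 in those of odor mice. S100a5 itself differed by 0.19 (log2, SE 0.08) between fractions in vehicle mice, short of the test. Arrays have no read depth, so their number sets the precision. With the deposited scaling the median gene was higher in GFP-positive cells by 0.06 in vehicle and by 0.13 in odor mice.

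The 5 genes did not move as a block between the fractions. In GFP-positive cells Icam1 was 2.24-fold lower in vehicle mice and 2.15-fold in odor mice, and Egfr was 1.73-fold and 1.72-fold lower. Krt5 was lower by 1.26-fold and 1.32-fold. Trp63 was 1.11-fold lower in both treatments without passing the test, and Krt14 showed no common direction. Thus 3 of 5 were lower in each treatment and none was higher, where 18.1% of all genes were called lower and 29.7% higher (47.7% in either direction) in vehicle mice. In odor mice 18.5% of all genes were lower and 32.9% higher (51.4% in either direction), and 16.4% were lower in both. With cyclic loess scaling 4377 genes were lower and 4359 higher in vehicle mice, against 3599 and 5914 as deposited, and 4782 and 4129 in odor mice, against 3687 and 6556. Called means an adjusted p under 0.05 (limma, Benjamini-Hochberg over all 19938 genes, with the pool as a block). The median difference of the 5 genes was -0.34 in vehicle and -0.40 in odor mice. In these bulk samples fewer cells of a type and less RNA per cell cannot be told apart.

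Krt5, the type II keratin of basal cells, measured 7.00, 7.08 and 7.34 (log2) in vehicle GFP-negative replicates 1, 2 and 4, and 6.76, 6.88 and 6.78 in the GFP-positive samples of the same pools. In odor replicates 2, 3 and 4 it measured 7.34, 7.34 and 7.04 in GFP-negative and 6.70, 6.86 and 6.96 in GFP-positive cells. The fractions did not overlap within either treatment, which held for 57.4% of all genes in vehicle and 60.7% in odor mice. The narrowest gap was in odor replicate 4. The difference was -0.34 (SE 0.12, limma adjusted p = 0.0416) in vehicle and -0.40 (SE 0.12, limma adjusted p = 0.0199) in odor mice. The vehicle call was lost without any 1 of the 3 vehicle pools (-0.22 and adjusted p = 0.248 without replicate 4), without odor replicate 3 (adjusted p = 0.058) and under quantile normalization (-0.25, adjusted p = 0.0943). The odor call was lost without odor replicate 2 (-0.28, adjusted p = 0.118) or 3 (-0.36, adjusted p = 0.0924).

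Krt14, the type I partner of Krt5, measured 5.88, 6.01 and 6.39 in vehicle GFP-negative replicates 1, 2 and 4 and 6.15, 6.36 and 6.14 in the matching GFP-positive samples. In odor replicates 2, 3 and 4 it measured 5.98, 6.18 and 5.95 in GFP-negative and 5.97, 6.16 and 5.98 in GFP-positive cells. The fractions overlapped in both treatments, and within odor pools the values lay almost on top of each other. The difference was 0.13 (SE 0.11, 95% interval -0.13 to 0.38, limma adjusted p = 0.42) in vehicle mice. It was -0.0026 (SE 0.11, interval -0.26 to 0.25, limma adjusted p = 0.985) in odor mice. Vehicle replicate 4 decided the first value, since without either of its samples Krt14 was called higher in GFP-positive cells (0.31, adjusted p = 0.0247). Keratin genes are similar in sequence, and how far the probes of one also bind transcripts of another was not tested.

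Trp63 measured 6.73, 6.69 and 6.82 in vehicle GFP-negative replicates 1, 2 and 4 and 6.60, 6.51 and 6.69 in the matching GFP-positive samples. In odor replicates 2, 3 and 4 it measured 6.73, 6.78 and 6.73 in GFP-negative and 6.52, 6.55 and 6.70 in GFP-positive cells. The fractions did not overlap, but the gaps were small against the spread. The difference was -0.15 (SE 0.08, interval -0.32 to 0.02, limma adjusted p = 0.147) in vehicle and -0.16 (SE 0.08, interval -0.33 to 0.02, limma adjusted p = 0.113) in odor mice. Cyclic loess scaling, which also shifted the median of all genes in the odor fit from 0.13 to 0.02, brought the odor difference to -0.25 (adjusted p = 0.0166).

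Icam1 measured 8.52, 8.89 and 8.81 in vehicle GFP-negative replicates 1, 2 and 4 and 7.55, 7.57 and 7.61 in the matching GFP-positive samples. In odor replicates 2, 3 and 4 it measured 8.38, 9.15 and 8.90 in GFP-negative and 7.68, 7.84 and 7.59 in GFP-positive cells. Every GFP-negative value was above every GFP-positive one, and the GFP-negative samples were the more scattered (SD 0.39 in odor GFP-negative against 0.13 in odor GFP-positive cells, n = 3 each). The difference was -1.16 (SE 0.13, limma adjusted p = 0.000106) in vehicle and -1.11 (SE 0.13, limma adjusted p = 0.000135) in odor mice.

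Egfr measured 7.50, 7.22 and 7.35 in vehicle GFP-negative replicates 1, 2 and 4 and 6.51, 6.62 and 6.56 in the matching GFP-positive samples. In odor replicates 2, 3 and 4 it measured 7.38, 7.43 and 7.30 in GFP-negative and 6.62, 6.61 and 6.52 in GFP-positive cells. The fractions were clearly apart, with all 6 GFP-positive values below the median of their array and all 6 GFP-negative values above it. The difference was -0.79 (SE 0.09, limma adjusted p = 0.000112) in vehicle and -0.78 (SE 0.09, limma adjusted p = 0.00011) in odor mice.

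**Figure D1:**
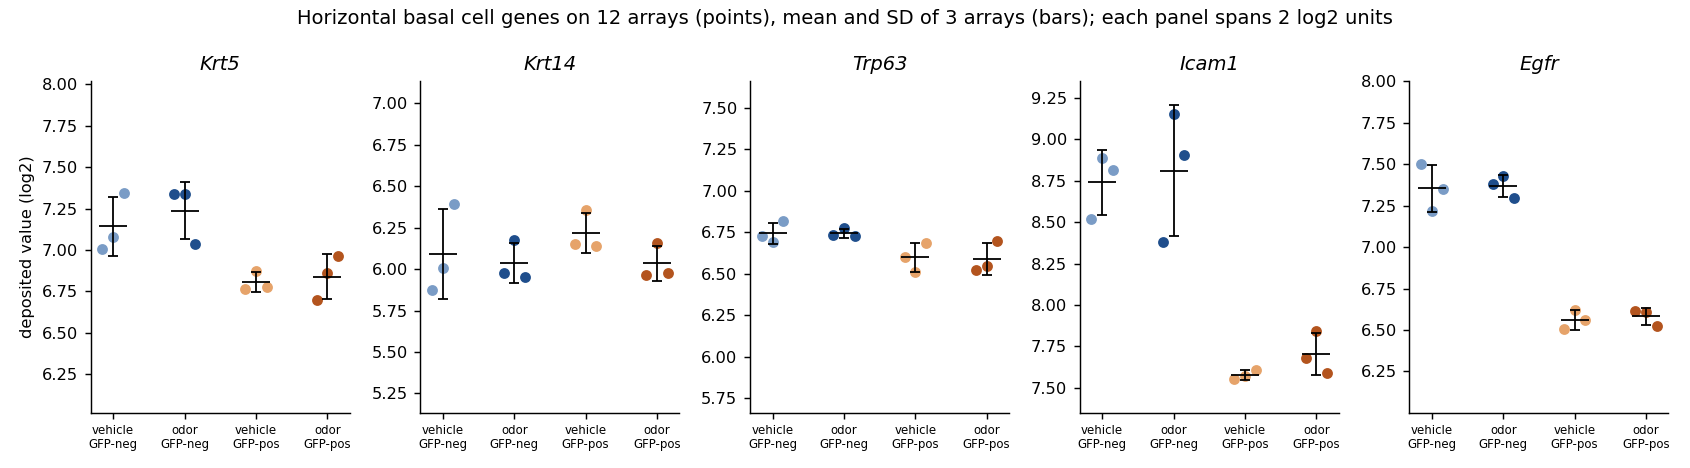
Deposited log2 value of each of the 5 genes on each of the 12 arrays, by group. Icam1 and Egfr lie lower on all GFP-positive arrays, while the Krt14 values of the groups overlap.

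Against the other probe sets of the same array, Krt14 and Trp63 lay below the array's median on all 12 arrays, Krt5 on 9 and Icam1 on 0. None of the 5 fell under the lower quartile of the probe sets of any array, but Krt14 lay below the lower quartile of gene means (6.37). How far Krt14 and Trp63 stood above background was not tested. Over the 12 arrays Icam1 spanned 1.60 on the log2 scale, Egfr 0.993, Krt5 0.646, Krt14 0.518 and Trp63 0.307.

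The 6 pools allowed a comparison within mice, in which each pool's GFP-negative value was subtracted from its GFP-positive value. The mean pool difference was -1.13 ± 0.25 for Icam1, -0.79 ± 0.13 for Egfr, -0.37 ± 0.22 for Krt5, -0.15 ± 0.07 for Trp63 and 0.06 ± 0.22 for Krt14 (log2, SD, n = 6). For Icam1, Egfr, Krt5 and Trp63 all 6 pools were below 0 (two-sided exact sign-flip permutation test, p = 0.03125, the smallest that 6 pools can give, unadjusted for the 5 genes). Of all genes, 20.2% had all 6 pools below 0 and 56.4% all 6 on one side of 0, and Trp63 was not called by limma. For Krt14 3 of 6 were below 0 (exact p = 0.4375), with differences from -0.25 in vehicle replicate 4 to 0.35 in vehicle replicate 2. Krt5 ranged from -0.64 in odor replicate 2 to -0.08 in odor replicate 4, and Icam1 from -1.32 to -0.70, the latter in odor replicate 2. So the pool with the largest Krt5 difference had the smallest Icam1 difference. Trp63 lay between -0.23 and -0.03 and Egfr between -0.99 and -0.59.

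**Figure D2:**
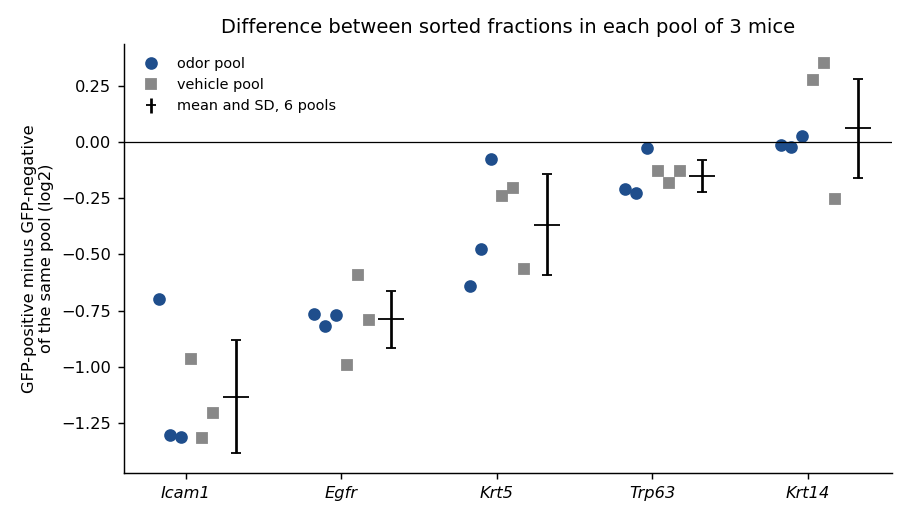
GFP-positive minus GFP-negative value (log2) of each gene in each of the 6 pools of 3 mice, with the mean and SD. All pools lie below 0 for Icam1, Egfr, Krt5 and Trp63, and 3 of 6 do for Krt14.

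Ordered by this difference, the genes ran Icam1, Egfr, Krt5, Trp63 and Krt14. The neighbours Icam1 and Egfr kept that order in 4 of 6 pools (exact sign-flip p = 0.125), and Trp63 and Krt14 in 5 of 6 (exact p = 0.09375), so neither pair was separated. The difference of Egfr lay below that of Krt5 in 6 of 6 pools (gap -0.42), and that of Krt5 below that of Trp63 in 6 of 6 (gap -0.22). Each had an exact sign-flip p = 0.03125, unadjusted for the 10 pairs compared, with the order taken from the same pools. Between arrays of 1 group, deviations of Krt5 and Krt14 from their group means correlated with r = 0.73 over 12 arrays, against 0.46 for Krt5 and Trp63 and -0.20 for Icam1 and Egfr. These points share arrays and pools and are a description.

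The other genes of the basal cell's attachment to its lamina and neighbours went both ways. The values that follow are differences on the log2 scale, GFP-positive minus GFP-negative, from the same limma fit. Of 20 measured adhesion genes, vehicle mice had 9 lower and 3 higher in GFP-positive cells, and odor mice had 8 and 4 (medians -0.20 and -0.08). Itga6, the laminin-binding integrin subunit of hemidesmosomes, was lower at -1.01 in vehicle and -1.66 in odor mice (SE 0.12), and Plec, the linker of keratin filaments to hemidesmosomes, at -1.30 and -1.23 (SE 0.13). Dsg2, a desmosomal cadherin, was lower at -0.95 and -0.98 (SE 0.10). Cdh3, the P-cadherin gene, was higher by 0.96 in vehicle and 0.86 in odor mice (SE 0.07).

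Among 18 other keratins, vehicle mice had 6 lower and 1 higher, odor mice had 5 and 2, and each had 11 that were not called. Those with the largest differences were Krt18 (-2.45 and -2.50, SE 0.09) and Krt8 (-1.51 and -1.47, SE 0.10), the keratin pair of simple epithelia, which is also a marker of sustentacular cells. Krt23 (-1.96 and -1.87) and Krt80 (-0.72 and -0.85) followed. Krt15, a keratin of basal cells elsewhere, chosen after its values were seen, differed by -0.04 in vehicle and 0.14 in odor mice (SE 0.13) and was not called.

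Of 12 measured p53-family and Notch pathway genes, vehicle mice had 7 lower and 2 higher, and odor mice 6 and 2. Notch2 (-2.69 and -2.76, SE 0.13) and Notch1 (-1.34 and -1.52, SE 0.13), receptors through which neighbouring cells steer each other's fate, were lower. So were their target genes Hes1 (-0.92 and -0.99) and Hey1 (-1.01 and -1.07), both transcriptional repressors. These 4 have the largest called differences of the list, whose median was -0.27 in vehicle and -0.28 in odor mice.

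Of the 3 receptors related to Egfr, 2 were lower in each treatment. Erbb3, a receptor with little kinase activity of its own, was lower at -1.50 in vehicle and -1.76 in odor mice (SE 0.07), and Erbb2, the partner without a known ligand, at -0.48 in both (SE 0.12). Erbb4 was higher with odor by 0.25 (SE 0.09, limma adjusted p = 0.0353) and differed by -0.03 with vehicle (limma adjusted p = 0.829). The change between treatments did not pass the test (0.28, SE 0.12, limma adjusted p = 0.917). Of 6 measured ligands, vehicle mice had 2 lower and 1 higher, and odor mice 1 and 2. Hbegf, made as a membrane-bound precursor, was lower at -0.68 and -0.49 (SE 0.10), Tgfa was lower in vehicle mice at -0.37 and was at -0.22 in odor mice without passing the test (SE 0.08), and Btc, betacellulin, was higher by 0.37 and 0.29 (SE 0.07). Of 10 genes of the signal below the receptor, vehicle mice had 5 lower and 2 higher, and odor mice 6 and 1. Dusp6, a phosphatase that ERK signalling induces, was lower at -1.92 and -2.02 (SE 0.14), Spry1, a feedback inhibitor, at -0.95 in both (SE 0.11), and the adaptor Shc1 at -0.89 and -1.11 (SE 0.08).

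**Figure D3:**
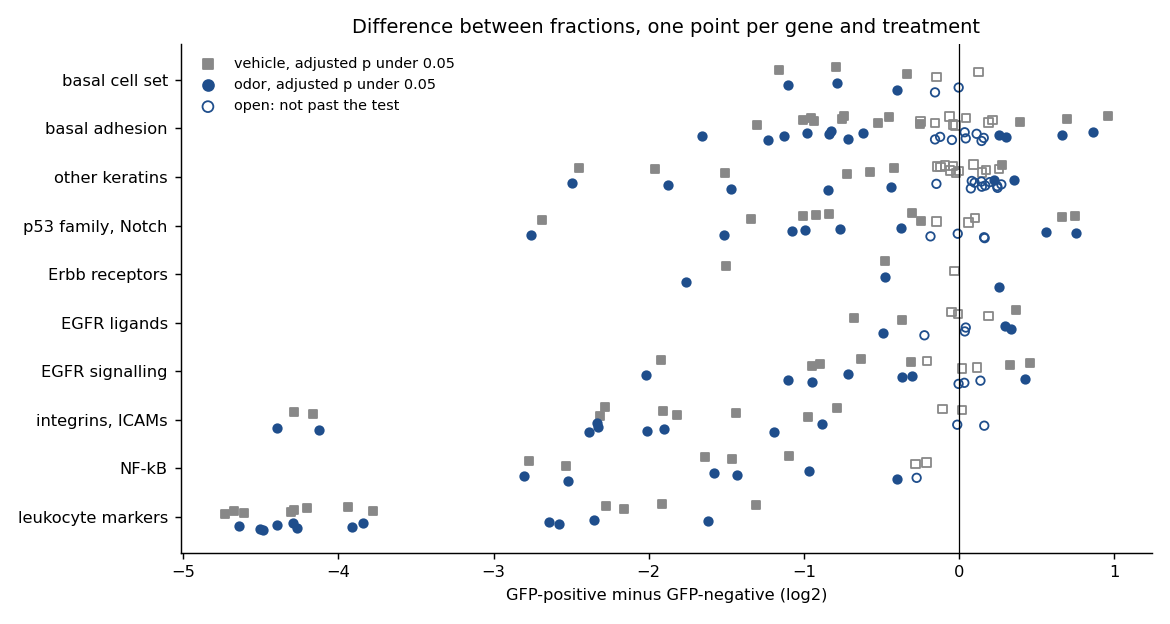
GFP-positive minus GFP-negative difference (log2) of each gene, in vehicle mice (squares) and odor mice (circles), by list; filled symbols have an adjusted p under 0.05. The leukocyte markers reach the lowest values, and the 5 basal cell genes lie between -1.16 and 0.13.

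Genes around ICAM1 were also lower. Of 11 integrin, ICAM and membrane linker genes 9 were lower and 0 higher in each treatment, with medians of -1.82 and -2.01. Itgam and Itgb2, which form the leukocyte integrin Mac-1 that binds ICAM1, were at -4.29 and -4.16 with vehicle and at -4.39 and -4.13 with odor. Ezr (-2.28 and -2.33) and Rdx (-2.32 and -2.38) encode ezrin and radixin, which tie membrane proteins to actin. Icam4 (-0.11 and -0.01) and Icam5 (0.02 and 0.16), named after their values were seen, were not called. Of 7 measured NF-kB genes 5 were lower in vehicle and 6 in odor mice, and 0 were higher. They included the subunit Rel (-2.77 and -2.81) and the inhibitors Tnfaip3 (-2.53 and -2.52) and Nfkbia (-1.64 and -1.58).

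Markers of several other cell types were also lower in GFP-positive cells, though not those of every type. All 12 leukocyte markers were lower in GFP-positive cells in both treatments (medians -4.07 and -4.09), and Itgam is on this list and the integrin list. Their mean log2 level per array was 11.04 to 11.30 in vehicle and 11.04 to 11.52 in odor GFP-negative samples, against 7.54 to 7.67 and 7.48 to 7.89 in GFP-positive ones. All 7 measured sustentacular markers were lower in both treatments, globose basal and progenitor markers in 9 of 9 and 8 of 9, and endothelial markers in 4 of 7 and 5 of 7. Microvillous cell markers were lower in 6 of 6 in both, Bowman's gland markers in 5 of 6 and 4 of 6, and ensheathing glia markers in 3 of 5 in both. Of 6 fibroblast markers 1 was lower and 5 were not called in each treatment, and of 6 immature neuron markers 3 were lower and 2 higher. The 7 genes listed for respiratory ciliated cells were all higher in GFP-positive cells (medians 0.62 and 0.73), where mature neuron markers had medians of 0.44 and 0.46. Which cells gave the signal of these 7 genes was not tested. Nor was the part of any of the listed cell types in the differences of Icam1, Egfr and Krt5.

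Within groups, Icam1 deviated together with the NF-kB mean (r = 0.80 over 12 arrays after subtraction of group means) and with the globose basal and progenitor mean (r = 0.80). With the leukocyte mean r was 0.47, and 0.70 over the 6 GFP-negative arrays. Over those 6 arrays r was higher with the globose basal and progenitor (0.92), p53-family and Notch (0.85) and NF-kB means (0.80). It was also higher with the other keratins (0.80) and the genes of the signal below EGFR (0.75). Over the 12 arrays, values near that for NF-kB also came with the p53-family and Notch mean (r = 0.75) and the other keratins (0.74). The 3 receptors related to Egfr (0.70) and the genes of the signal below EGFR (0.69) followed. With the immature neuron mean r was -0.67, and with the mature neuron mean -0.65. The value for NF-kB was thus not particular to that list. For Egfr r was 0.64 with the endothelial, 0.63 with the Bowman's gland and 0.60 with the fibroblast mean, and -0.23 with the NF-kB mean. These are descriptions over arrays that share pools.

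**Figure D4:**
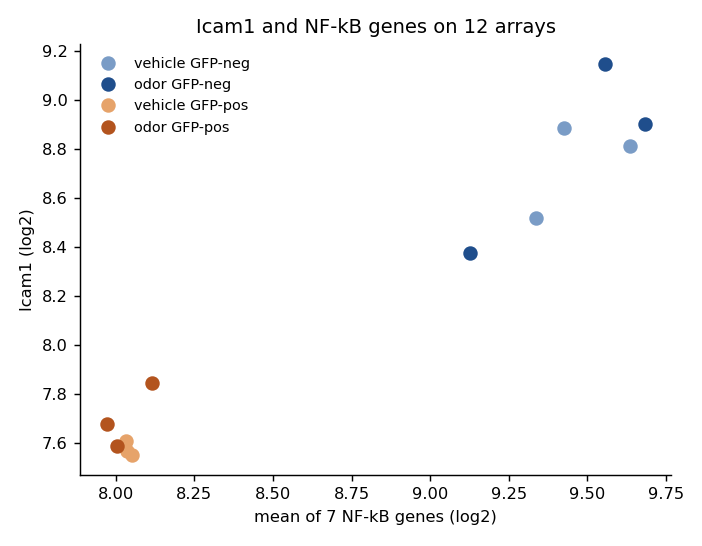
Icam1 (log2) against the mean of 7 NF-kB genes (log2) on the 12 arrays, coloured by group. GFP-negative arrays lie upper right, at NF-kB means from 9.13 to 9.68, and GFP-positive ones lower left, from 7.97 to 8.11.

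Odor pulses left no detectable change in any of the 5 genes. In GFP-positive cells 0 of 5 were called, where 0.00502% of all genes were (1 gene, and 259 at an unadjusted p under 0.05). In GFP-negative cells 0 of 5 were called, where limma called 0% of all genes (1301 at an unadjusted p under 0.05). The odor and vehicle values overlapped for all 5 genes in both fractions, while the share of all genes without overlap was 7.93% for GFP-positive and 7.44% for GFP-negative cells. In GFP-positive cells the odor minus vehicle difference was 0.03 for Krt5 (95% interval -0.21 to 0.27), -0.18 for Krt14 (-0.45 to 0.09) and -0.01 for Trp63 (-0.17 to 0.15). It was 0.13 for Icam1 (-0.22 to 0.48) and 0.02 for Egfr (-0.15 to 0.20). These intervals are for single genes, unadjusted for the number of genes tested, and show how loosely 3 pools against 3 fix each difference. They are not a limit of detection. A call needed an adjusted p under 0.05 over all genes, so changes outside them could also have gone uncalled.

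In GFP-negative cells the difference was 0.09 for Krt5 (-0.14 to 0.33), -0.05 for Krt14 (-0.33 to 0.22) and -0.0003 for Trp63 (-0.16 to 0.16). It was 0.07 for Icam1 (-0.28 to 0.42) and 0.01 for Egfr (-0.16 to 0.19). Icam1 had the widest intervals in both fractions and Trp63 the narrowest. The fit shares each gene's spread over all 4 groups, so the interval of a gene has the same width in both fractions. For Icam1 the SD was 0.39 in odor and 0.195 in vehicle GFP-negative cells, against 0.13 and 0.03 in GFP-positive ones. The exact permutation test of 3 pools against 3 gave p from 0.2 to 1, and cannot go below 0.1. Of the related lists none had a called gene in either odor comparison.

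**Figure D5:**
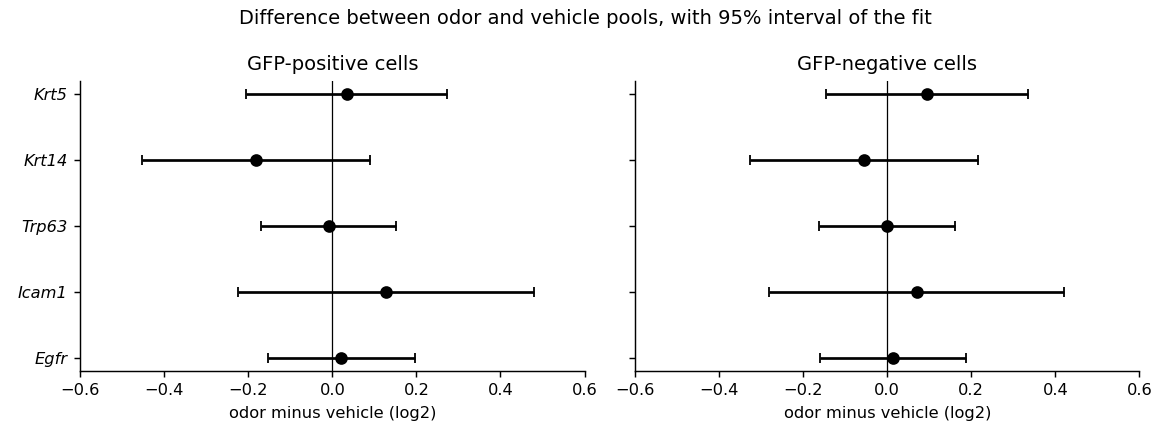
Odor minus vehicle difference (log2) of each gene in GFP-positive and GFP-negative cells, with the 95% interval of the fit over 3 pools a group. Every interval includes 0. Those of Icam1 are the widest, with the spread of each gene shared by all 4 groups.

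The difference between fractions did not differ detectably between treatments either. The odor minus vehicle change of that difference was -0.06 (SE 0.17) for Krt5, -0.13 (SE 0.16) for Krt14, -0.01 (SE 0.11) for Trp63, 0.06 (SE 0.18) for Icam1 and 0.01 (SE 0.12) for Egfr. The limma adjusted p lay between 0.944 and 0.994. Of all genes 0% were called here, and 932 had an unadjusted p under 0.05.

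The genes whose deviations from group means over the 12 arrays were most like those of each gene were picked among all 19938. For Krt5 they were Dgkeos (r = 0.98), Dact2, Aqp7, Tpd52l1 and Lyg1. For Krt14 they were Cav3 (r = 0.97), Ffar1, Tnc, Armc12 and Foxc2, and for Trp63 Slc25a34 (r = 0.95), Adam4, Lypd3, Dll3 and Ambn. For Icam1 they were Vxn (r = 0.98), Foxd3, Ablim3, Gys1 and Cenpf, and for Egfr Crhr1 (r = 0.93), Olfr911-ps1, Gm1527, Comp and 1700061I17Rik. No gene appeared for more than 1 of the 5, and none of the 5 was among the likeness genes of another. With 8 degrees of freedom left per gene, high values among so many genes are a description only.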

How the data were processed

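Total RNA of sorted cells was measured on Mouse Gene 1.0 ST arrays. Log2 values for each probe set, as deposited by the authors, came from Affymetrix Expression Console according to the submitters' processing notes. Its version, background correction and scaling of arrays to one another were not stated in the labels. That the scale is log2 follows from a range of 2.42 to 14.1. Columns of other samples numbered 0.

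A single symbol was annotated for 21789 of 35556 probe sets, giving 19938 genes (highest-mean probe set per gene, no low-value filter). Differences between fractions and their interaction with odor were fitted in limma 3.58.1 (R 4.3.3) on all 12 arrays with the pool as a block, since both fractions of a pool come from the same mice. Deviations from group means correlated within pools with r from 0.07 to 0.25. Odor differences were fitted on 4 group means without a block. Odor and vehicle samples whose array codes carry the same number deviated together in GFP-positive cells (r = 0.31, 0.19 and 0.27). In GFP-negative cells r was 0.44, -0.21 and 0.28. The code number was a block only in an alternative fit of both fractions, and no odor difference or interval given above is paired by it. Tests were two-sided, with Benjamini-Hochberg adjustment over all genes at 0.05. The procedure was also run on simulated data, with shifts larger than the Krt5 and Trp63 differences of the main fit. No result given here rests on that run. Nothing says that replicates are more than separate pools of 3 mice. With the pool as a block, p-values of fraction differences and of the interaction measure how the difference within a pool varies between pools. Those of odor differences measure the spread between pools of a group. Single genes were also tested by exact permutation. Figures used matplotlib 3.10.9 with pandas 2.3.3 and numpy 2.4.6 in Python 3.11.15.

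The 5 genes and all lists were chosen with earlier results of these data known. The naming rule gives the 5 genes, up to 4 genes of each list with the largest called differences, or the 2 with the smallest p, and the 5 most alike genes for each. Genes named outside it are said to be, except Cdh3 and Tgfa in odor mice and Erbb4 in vehicle mice, given beside the other treatment. S100a5 in vehicle mice is also outside it, named as the gene of the reporter. Alternatives were other normalizations, a low-value filter, the mean of probe sets, array weights, other blocks and leaving out each array.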

Additional observations from a re-analysis of the deposited data

How the results depend on the processing

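Icam1 and Egfr kept direction and call in both treatments under 18 of 18 alternatives, Icam1 between -1.31 and -1.002 and Egfr between -0.89 and -0.69. The Krt5 call was lost in 9 of 18 alternatives in vehicle mice (adjusted p from 0.0195 to 0.248) and in 4 of 18 in odor mice (0.00414 to 0.118). With the pool as a block, leaving out either array of a pool gave the same fit, so the 18 alternatives hold repeats. Leaving out an array of the other treatment, or averaging probe sets, could change the SE but not the difference. The number of the 5 genes called ranged from 2 to 3 in vehicle and from 2 to 4 in odor mice, and was 0 under every alternative in the other comparisons. Without the replicate block by pool 3 genes were called in each treatment, with Krt5 at an adjusted p of 0.0229 and 0.00931. The low-value filter left 4 of the 5 genes, without Krt14. Cyclic loess changed the genes called higher in odor mice from 6556 to 4129. Genes higher in the interaction went from 0 to 1 without the replicate block and with array weights, and the 1 gene higher with odor in GFP-positive cells to 0 with the title number as replicate block and with cyclic loess. With 1 array left out, the counts in the interaction ranged from 0 to 1 in either direction, those higher with odor in GFP-positive cells from 0 to 1, and in GFP-negative cells from 0 to 15 higher and 0 to 1 lower.

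Uncalled differences near 0 changed sign, and the cause was not tested. Egfr in the interaction was -0.037 with quantile and -0.096 with cyclic loess normalization, and Icam1 was -0.050 with array weights. For odor in GFP-positive cells, the title number as replicate block gave -0.042 for Krt5 and -0.054 for Icam1, quantile and cyclic loess gave -0.0022 and -0.0078 for Egfr, and array weights gave 0.012 for Trp63. For odor in GFP-negative cells, the title number block gave -0.11 for Icam1. Trp63 there was 0.048 with quantile, 0.082 with cyclic loess and 0.016 with array weights, Krt14 was 0.030 with cyclic loess and 0.089 with array weights, and Egfr was -0.071 with array weights. With 1 array left out, the Krt14 difference between fractions in odor mice ranged from -0.017 to 0.0061. In the interaction Krt5 ranged from -0.22 to 0.060, Trp63 from -0.072 to 0.028, Icam1 from -0.15 to 0.16 and Egfr from -0.093 to 0.11. For odor in GFP-positive cells Krt5 ranged from -0.027 to 0.11, Trp63 from -0.0635 to 0.035 and Egfr from -0.0071 to 0.052. In GFP-negative cells Krt14 ranged from -0.16 to 0.096, Trp63 from -0.0265 to 0.035, Icam1 from -0.0998 to 0.29 and Egfr from -0.055 to 0.086. With the code number as replicate block, 0 of the 5 genes were called in either fraction and the differences were those without it (0.13 for Icam1 in GFP-positive cells). Same title numbers correlated at -0.17 and 0.27 in GFP-positive cells and at 0.24 and 0.28 in GFP-negative cells, and that block also called 0 of the 5 genes.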
